A study of Mus musculus with 11 samples.

Results

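The genes of the epidermal growth factor receptor (EGFR) family were examined in epithelium of the gingiva from langerin-DTR mice. These are 10 genes of 19170 with values in the deposited table, chosen by name: the ligands Hbegf, Areg, Ereg, Tgfa, Btc and Epgn, the receptors Egfr, Erbb2 and Erbb3, and the feedback inhibitor Errfi1. The mean of each was 10 normalized counts or more. Male langerin-DTR mice, in which langerin drives a receptor for diphtheria toxin (DT), so that the toxin removes Langerhans cells (LCs), received either PBS (5 mice) or DT (6 mice) at 17, 24 and 31 days of age. Both groups carried the transgene, and the epithelium was taken at 8 weeks of age, several weeks after the last injection. Each library is 1 mouse, and between 17509328 and 24325513 reads per mouse fell on the genes with values.

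The ligands are made as membrane-anchored precursors that proteases such as ADAM17 release, after which they bind receptors on the same or on neighbouring cells. EGFR forms dimers with itself or with ERBB2, which has no known ligand, or ERBB3, which has little kinase activity of its own, and signals through RAS and ERK to early response genes. In keratinocytes this pathway drives proliferation, migration and wound closure, and the transcripts of several ligands are themselves induced by EGFR signaling. The precursor of human HBEGF is the receptor for DT, which is why rodent cells, whose own HBEGF binds the toxin poorly, need a transgene to be killed by it. Hbegf in these data is the mouse gene. Whether reads of the transgene were counted on it was not tested.

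Langerin itself, encoded by Cd207, had 10.0 to 43.0 normalized counts after PBS and 15.8 to 21.6 after DT (log2 fold change of -0.19, SE 0.30, limma adjusted p = 0.853). By flow cytometry, the paper reports that DT left no gingival LCs during weaning. It also reports that they had returned to normal frequencies by the age sampled here. The Cd207 values at this age therefore cannot show whether LCs had been removed earlier. The samples carried the transcripts of an epithelium. The 10 keratinocyte markers (Krt5, Krt14, Krt13 and others) summed to between 1797944 and 2052979 normalized counts per mouse, while the 5 endothelial markers summed to 45.3 to 119 and the 6 muscle markers to 31.4 to 73.0. The 6 fibroblast markers summed to 1109 to 1594 normalized counts per mouse. In bulk tissue, fewer cells of a type and less RNA per cell cannot be told apart.

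Of the 10 genes, Areg was the one that passed the threshold between the groups, and it was higher after DT. The comparison was made with limma on log2(normalized count + 1) over all genes with a Benjamini-Hochberg adjusted p under 0.1, by which 0.558% of all genes were called (0.313% higher and 0.245% lower after DT). Hbegf, Ereg and Epgn had positive differences with an unadjusted p under 0.05 that did not pass after adjustment. That makes 4 of 10 genes at this level and in this direction, counting Areg, against 5.31% of all genes. The members were chosen with earlier results of these data known, so these shares do not test whether the family stands out. No member was lower at an unadjusted p under 0.05 (0 of 10, against 6.19% of all genes). The receptors, Tgfa, Btc and Errfi1 did not pass either. In none of the 10 genes did every DT-treated mouse lie above every PBS-treated mouse, as in 1.23% of the 13477 genes whose mean was 10 normalized counts or more. Groups without overlap in either direction made up 2.11% of those genes and 0 of the 10 members. The median log2 fold change was 0.09 over the 10 genes and -0.01 over all genes.

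**Figure D1:**
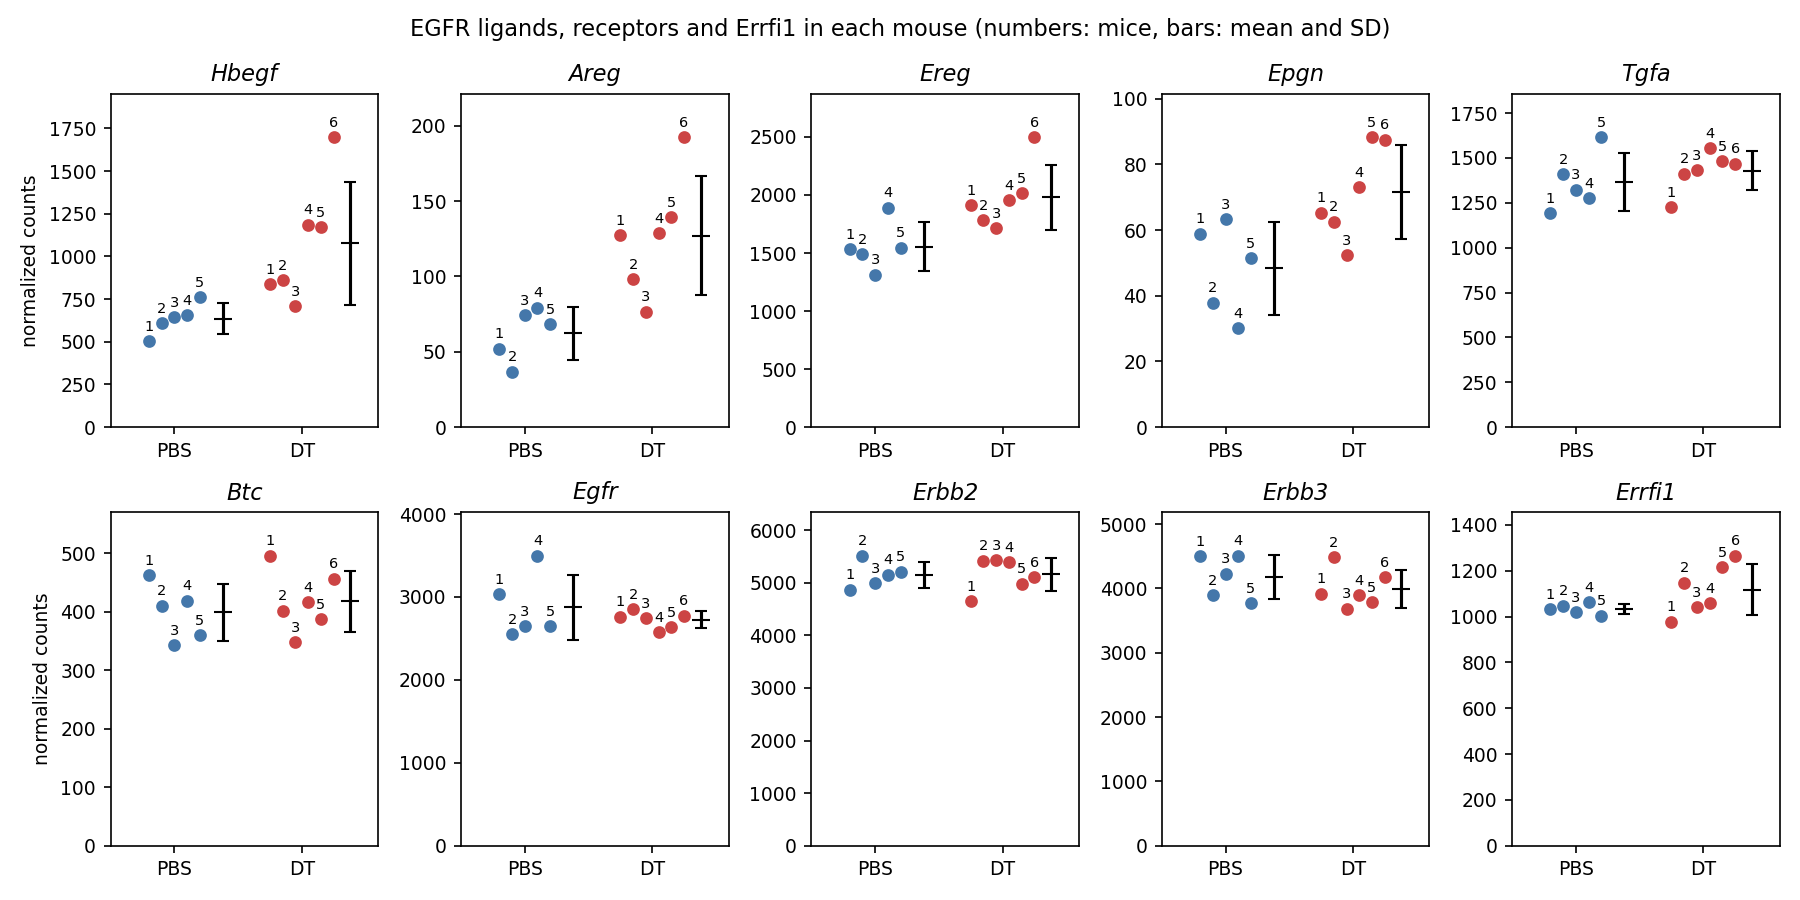
Normalized counts (y axes, from 0) of the 6 ligands, 3 receptors and Errfi1 in each of the 5 PBS (blue) and 6 DT (red) mice, numbered as in the labels, with mean and SD as black bars. Areg and Hbegf had 5 of 6 DT-treated mice above all PBS-treated mice, with DT 3 the exception, while the receptors overlapped throughout.

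Areg encodes amphiregulin, a ligand of low affinity for EGFR that is known from epithelial repair. PBS 1 to PBS 5 had 52.1, 36.9, 74.4, 79.2 and 68.2 normalized counts of it. DT 1 to DT 6 had 127, 98.0, 76.6, 129, 139 and 193. The groups met at DT 3, which lay below PBS 4, and the other 5 DT-treated mice lay above every PBS-treated mouse. Mean normalized counts rose from 62.2 ± 17.4 (SD, n = 5) in the PBS group to 127 ± 39.6 (SD, n = 6) in the DT group, by 1.01 on the log2 scale (SE 0.22, 95% interval 0.54 to 1.49, limma adjusted p = 0.0784). On a linear scale this is 2.02-fold, with an interval from 1.45 to 2.81. The call is close to the threshold and depended on single mice. When each of the 11 mice was left out in turn it held 5 times, and it was lost without PBS 1, PBS 2, DT 1, DT 4, DT 5 or DT 6 (log2 fold changes 0.96, 0.84, 1.00, 1.00, 0.975 and 0.88, limma adjusted p = 0.197, 0.191, 0.143, 0.159, 0.211 and 0.183). Over all alternatives tried, its log2 fold change lay between 0.84 and 1.18.

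Hbegf (heparin-binding EGF-like growth factor), which binds EGFR and ERBB4 and is produced at wound margins by migrating keratinocytes, amounted to 505, 610, 645, 656 and 763 normalized counts from PBS 1 to PBS 5. After DT it had 837, 862, 707, 1185, 1171 and 1699 normalized counts in DT 1 to DT 6. As for Areg, DT 3 alone fell within the range of the PBS-treated mice, and DT 6 stood highest. The PBS group averaged 636 ± 92.8 (SD, n = 5) and the DT group 1077 ± 360 (SD, n = 6), which differ by 0.71 on the log2 scale (SE 0.175, 95% interval 0.34 to 1.08, limma adjusted p = 0.126). The SD after DT was 3.88 times that after PBS. Hbegf passed the threshold without PBS 5 (0.78, limma adjusted p = 0.067) and without DT 3 (0.82, limma adjusted p = 0.0647), and not when any of the other 9 mice was left out. The unadjusted exact permutation test over all ways to divide the mice gave p = 0.0108 for Hbegf and 0.0065 for Areg (two-sided), where 0.0022 is the smallest p possible, and adjusted over all genes that test called 0 genes.

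Ereg encodes epiregulin, a ligand of EGFR and ERBB4. Its normalized counts were 1531, 1492, 1314, 1891 and 1547 in PBS 1 to PBS 5 and 1911, 1785, 1711, 1956, 2015 and 2499 in DT 1 to DT 6. PBS 4 lay within the range of the DT-treated mice, and the other 4 PBS-treated mice lay below all of them. The log2 fold change was 0.35 (SE 0.095, 95% interval 0.15 to 0.55, limma adjusted p = 0.186), and without PBS 4 it was 0.42 and past the threshold (limma adjusted p = 0.0596).

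Epgn encodes epigen, a ligand of low affinity for EGFR. It had the lowest level per kilobase of the members, and its normalized counts were 58.8, 37.9, 63.4, 30.1 and 51.4 in PBS 1 to PBS 5 and 65.3, 62.5, 52.4, 73.0, 88.3 and 87.5 in DT 1 to DT 6. The highest PBS-treated mouse, PBS 3, exceeded DT 2 and DT 3. The difference of 0.58 on the log2 scale had a 95% interval from 0.16 to 1.00 (limma adjusted p = 0.266) and did not pass the threshold in any fit that left out 1 mouse.

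Tgfa and Btc, the ligands transforming growth factor alpha and betacellulin, differed by less than the spread within the groups. Tgfa covered 1194 to 1617 normalized counts in the PBS group and 1226 to 1554 in the DT group, with a log2 fold change of 0.07 (95% interval -0.09 to 0.23). Btc covered 343 to 463 and 349 to 496, with a log2 fold change of 0.07 (95% interval -0.14 to 0.27). The intervals of both leave room for a rise of up to 1.175-fold for Tgfa and 1.20-fold for Btc.

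**Figure D2:**
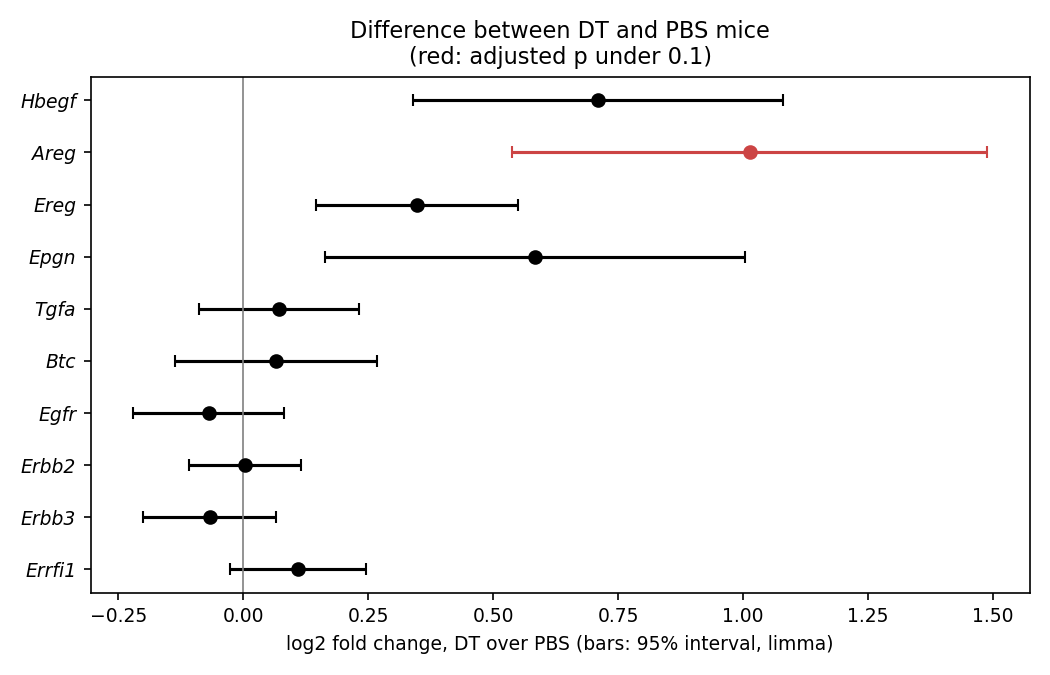
Log2 fold change between DT-treated and PBS-treated mice (x axis) for each gene, with the 95% interval of limma as bars. Areg (red) passed an adjusted p under 0.1, the intervals of Hbegf, Ereg and Epgn lie above 0, and those of the other 6 genes include 0.

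Egfr, the common receptor of these ligands, amounted to 3030, 2553, 2649, 3500 and 2648 normalized counts from PBS 1 to PBS 5. In DT 1 to DT 6 it had 2760, 2855, 2746, 2575, 2632 and 2774. Every DT-treated mouse lay within the range of the PBS-treated mice. The log2 fold change was -0.07 (SE 0.07, 95% interval -0.22 to 0.08, limma adjusted p = 0.765), and it was 0.00 without PBS 4, the mouse with the highest value. Erbb2, the partner without a ligand, covered 4870 to 5520 in the PBS group and 4655 to 5433 in the DT group, and its log2 fold change of 0.00 had the narrowest interval of the 10 genes, from -0.11 to 0.12. Erbb3, a receptor for neuregulins, covered 3775 to 4512 in the PBS group and 3683 to 4485 in the DT group, with a log2 fold change of -0.07 (95% interval -0.20 to 0.07). For these 3 receptors a change beyond 1.08-fold upward or 0.86-fold downward lies outside the 95% intervals.

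Errfi1 encodes MIG6, which binds the kinase domain of EGFR, inhibits it and is induced by the signal it restrains. From PBS 1 to PBS 5 its normalized counts were 1031, 1048, 1019, 1062 and 1003, the most uniform values of the 10 genes, with a coefficient of variation of 2.24%. In DT 1 to DT 6 it had 977, 1148, 1042, 1059, 1215 and 1266, a coefficient of variation of 9.93%. DT 2, DT 5 and DT 6 lay above all PBS-treated mice and DT 1 below them. The log2 fold change was 0.11 (95% interval -0.03 to 0.245, limma adjusted p = 0.544). The difference in spread was not tested.

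The genes of 4 ligands lie side by side on chromosome 5 of GRCm38. Epgn (91027464 to 91035215), Ereg (91074622 to 91093646) and Areg (91139599 to 91148432) are on the plus strand, and Btc (91357261 to 91402994) follows on the minus strand, so that together they span 375531 bases. Areg and Btc are 208828 bases apart, and Ereg and Areg 45952 bases. The other members are scattered, with Hbegf on chromosome 18 (36504927 to 36515805), Tgfa on 6, Errfi1 on 4, Egfr and Erbb2 on 11 and Erbb3 on 10. From the end with Epgn, the log2 fold changes along the cluster were 0.58, 0.35, 1.01 and 0.07. Of the 7 annotated genes within the span 6 had values, and those that are not ligands, Gm19610 and Gm19619, were near the limit of detection at means under 5 normalized counts. Gm19610 overlaps the start of Ereg on the opposite strand. Outside the cluster, Mthfd2l next to Epgn and Parm1 next to Btc had log2 fold changes of -0.09 and -0.03, and the chemokine genes Cxcl1, Cxcl2 and Cxcl3 had 0.43, 0.43 and -0.07. None of these 5 genes passed the threshold (limma adjusted p between 0.754 and 0.983).

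**Figure D3:**
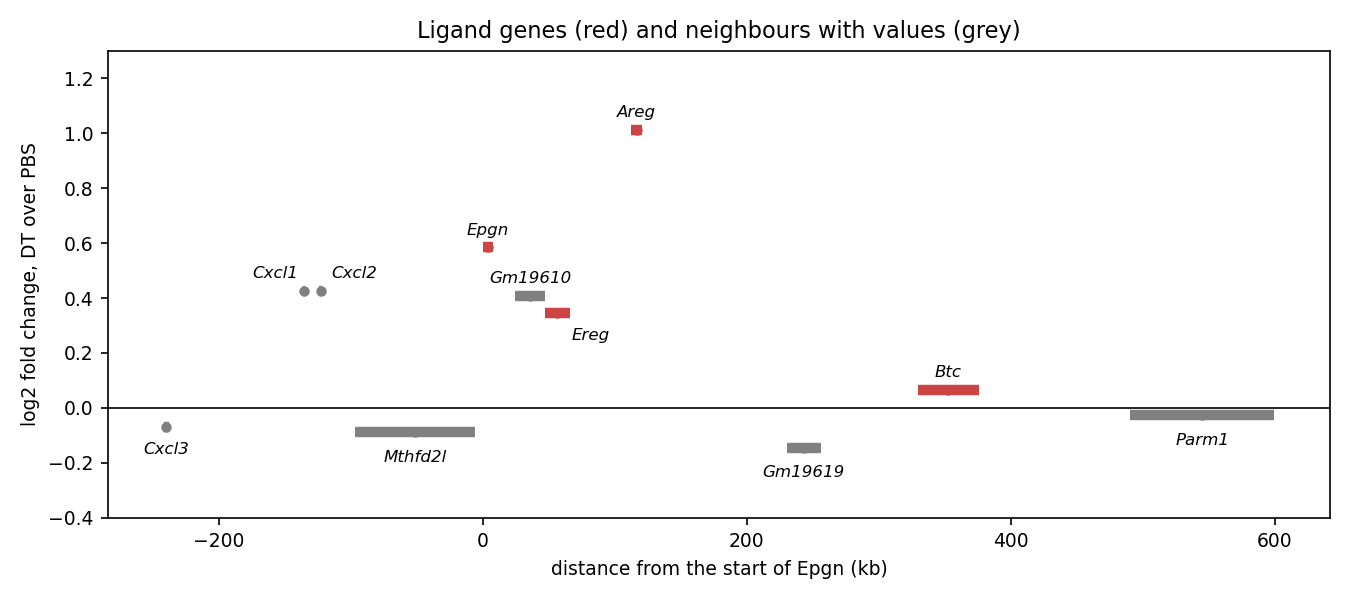
Log2 fold change between DT-treated and PBS-treated mice (y axis) of the genes with values around the ligand cluster, drawn at their distance from the start of Epgn in kilobases (x axis). The ligand genes are red, with Areg at 1.01 and Btc at 0.07, and their neighbours are grey.

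The promoters of 3 genes are shown because 2 of them share a motif and 1, that of Btc, belongs to a ligand of the same cluster with a log2 fold change near 0. They are the 250 bases before the RefSeq transcription start on GRCm38.p6, 5′ to 3′ on the strand of the gene. Capitals mark the cAMP response element TGACGTCA (CRE), its core TGACG, the TATA box TATAAA or the reverse complement of any of these. Each was searched on both strands together with the AP-1 motif TGANTCA and the CArG box.
Areg, chr5:91139349-91139598, plus strand: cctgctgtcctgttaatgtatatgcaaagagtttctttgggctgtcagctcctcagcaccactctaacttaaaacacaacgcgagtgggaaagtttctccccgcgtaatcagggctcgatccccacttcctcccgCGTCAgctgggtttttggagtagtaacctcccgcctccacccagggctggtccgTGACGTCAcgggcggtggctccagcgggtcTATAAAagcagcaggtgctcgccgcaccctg
Btc, chr5:91402995-91403244, minus strand: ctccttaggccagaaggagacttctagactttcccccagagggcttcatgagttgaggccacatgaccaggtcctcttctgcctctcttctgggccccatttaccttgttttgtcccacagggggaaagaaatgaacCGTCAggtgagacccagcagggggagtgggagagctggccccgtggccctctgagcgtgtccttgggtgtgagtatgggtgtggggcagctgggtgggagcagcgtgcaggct
Errfi1, chr4:150854820-150855069, plus strand: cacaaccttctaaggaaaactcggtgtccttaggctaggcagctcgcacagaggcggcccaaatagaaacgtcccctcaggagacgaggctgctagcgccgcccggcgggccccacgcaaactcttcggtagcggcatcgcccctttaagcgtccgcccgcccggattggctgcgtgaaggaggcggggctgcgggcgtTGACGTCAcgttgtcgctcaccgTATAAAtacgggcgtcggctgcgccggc

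In the Areg promoter the CRE lies 61 to 54 bases before the start and the TATA box 31 to 26, with another core 115 to 111 bases before it. In that of Errfi1, which belongs to the second of 2 annotated starts, they lie 51 to 44 and 28 to 23 bases before it. The Btc window holds a core alone. RefSeq promoters were found for 7 of the 10 genes (Errfi1, Epgn, Areg, Btc, Tgfa, Egfr and Erbb2), and of these only Areg and Errfi1 hold a CRE, which 1.55% of all 32851 promoters of this length hold. A core, which every CRE contains, is in 17.8% of all promoters and a TATA box in 12.4%. Of the 7 genes, 5 hold a core (Areg, Errfi1, Btc, Epgn and Erbb2) and 3 a TATA box (Areg, Errfi1 and Epgn). No AP-1 motif (6.75% of all promoters) or CArG box (1.47%) was found in the 7 genes. These are matches of letters, and whether any of them bears on expression was not tested.

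Levels of different genes were compared as normalized counts per kilobase of the longest annotated transcript, as means over the 11 mice. Such levels can be compared between genes only if the reads cover whole transcripts. The trimming described is that for 3′ libraries, so the order given here may not hold. Erbb2 had the highest level, 1029 ± 53.9 (SD, n = 11), followed by Erbb3 at 678 ± 52.4, and neither overlapped with the next gene in any mouse. Ereg (433 ± 78.7), Errfi1 (355 ± 30.04), Tgfa (309 ± 29.5), Hbegf (303 ± 121) and Egfr (274 ± 26.6) followed, and in each step of this order the ranges over the mice overlapped. Btc (102 ± 12.1), Areg (80.3 ± 37.3) and Epgn (34.6 ± 10.3) were lowest and overlapped with their neighbour as well. The order depends on the transcript length used. With the mean length over annotated transcripts 5 of the 10 genes kept their place, Egfr moved from place 7 to place 2 and Ereg from place 3 to place 7, below Tgfa and Hbegf. The order also differed between the groups. Hbegf had 220 per kilobase of the longest transcript in the PBS group, below Egfr at 282, and 373 in the DT group, above Errfi1 at 367 and Tgfa at 316. Areg had 51.2 against 99.1 for Btc in the PBS group, and 105 against 104 in the DT group.

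Summed over the 6 ligands, the level per kilobase was 1076 ± 80.1 (SD, n = 5) in the PBS group and 1417 ± 243.5 (SD, n = 6) in the DT group, with a range of 1000 to 1170 and of 1155 to 1839, which overlap. Ereg held 35.0% ± 3.51 of this sum after PBS and 34.0% ± 1.64 after DT. The share of Hbegf was 20.4% ± 2.02 after PBS and 25.7% ± 4.03 after DT, and that of Areg 4.74% ± 1.22 and 7.25% ± 1.17. Tgfa held 28.0% ± 2.56 and 22.7% ± 3.34. In each of these 4 ligands the ranges of the groups overlapped, and since shares sum to a whole a larger share of one ligand lowers the others. The shares depend on the transcript length as well, and like the levels they hold only if the reads cover whole transcripts. With the mean length, Tgfa held the largest share over all mice, 37.4%, followed by Hbegf with 23.1% and Ereg with 22.5%.

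**Figure D4:**
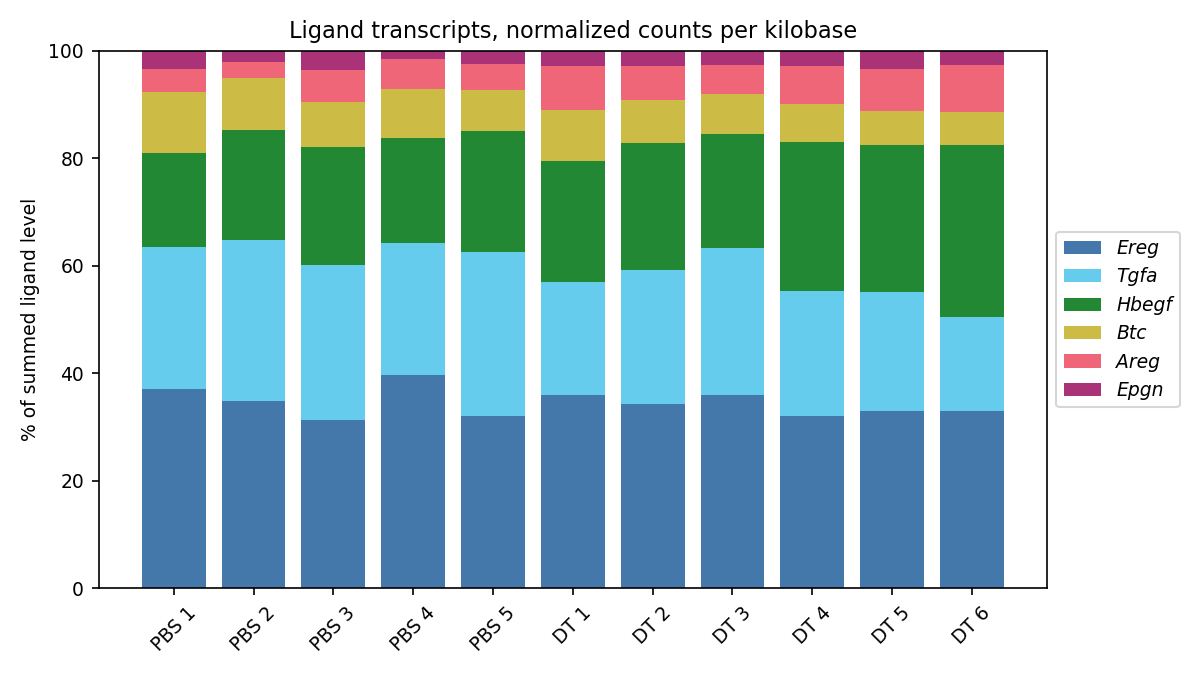
Share of each ligand in the summed level of the 6 ligands (y axis, percent of normalized counts per kilobase of the longest transcript) in each mouse (x axis). Ereg, Tgfa and Hbegf made up most of the sum in every mouse, and the share of Hbegf ranged from 17.5% in PBS 1 to 32.0% in DT 6.

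Within the DT group the 4 ligands with an unadjusted p under 0.05 were compared by the order of the mice. DT 3 was the lowest DT-treated mouse for all 4 of Hbegf, Areg, Ereg and Epgn, and DT 6 was the highest for 3 of them, the exception being Epgn, with DT 5 highest. DT 3 was also the lowest DT-treated mouse for Btc and Erbb3, so its place was not particular to these 4. After PBS no mouse held the same end for more than 2 of the 4. With the group means subtracted, Hbegf and Areg had a Pearson's r of 0.75 over the 11 mice (exact permutation of mice within groups, p = 0.009, adjusted over 45 pairs 0.409) and a Spearman's rho of 0.72 (p = 0.020). Without the 2 mice farthest from the median of Hbegf r was 0.47. Hbegf and Ereg had an r of 0.68 (rho 0.70, exact permutation p = 0.027 and 0.030, adjusted 0.409 for r), which fell to 0.26 without 2 mice. Both values of r thus depended on those mice, and leaving them out also narrows the range of Hbegf. Egfr and Erbb3 had an r of 0.69 (rho 0.79, exact permutation p = 0.024 and 0.011, adjusted 0.409 for r), and 0.66 without 2 mice. None of the 45 pairs of members passed after adjustment, and 4 had an unadjusted exact p under 0.05 for r.

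Over the same deviations, the genes most like Hbegf among the 13477 whose mean was 10 normalized counts or more were Robo2, Itfg1 and Mtmr2, with an r of 0.92, 0.87 and 0.87 over 11 mice. Those most like Areg were Nfkbia, Kctd4 and Nt5c3, with 0.95, 0.93 and 0.93, and those most like Errfi1 were Trappc8, Fbln7 and Spry2, with 0.883, 0.865 and 0.864. These genes were picked for their r from all 13477, and none of them passed the threshold between the groups.

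The other genes of the pathway were described from 6 lists, chosen with earlier results of these data known. Of the remaining ErbB ligands and the receptor Erbb4 (6 genes with values), of the genes for ligand shedding (11), of the relay from the receptor (25) and of receptor down-regulation (17), 0 genes passed the limma threshold in either direction, with median log2 fold changes of -0.04, 0.01, 0.00 and 0.00. Over all genes 0.558% passed that threshold. At an unadjusted limma p under 0.05, 4 genes of these lists were higher and 4 lower, against 5.31% and 6.19% of all genes. Adam17, the protease that sheds several of these ligands, had a log2 fold change of 0.01, and Erbb4 was near the limit of detection with means of 3.09 and 2.88 normalized counts. Of the 12 feedback genes of the ERK pathway 2 rose and 0 fell past the limma threshold, against 0.313% and 0.245% of all genes. The log2 fold changes of the 12 ranged from -0.425 to 1.02, with a median of 0.04, so the list was not raised as a whole. Dusp6, an ERK phosphatase induced by ERK signaling, averaged 118 ± 27.1 (SD, n = 5) normalized counts in the PBS group and 199 ± 19.8 (SD, n = 6) in the DT group and rose by 0.77 on the log2 scale (SE 0.13, limma adjusted p = 0.0255), and Dusp1, a phosphatase of ERK, JNK and p38, rose by 1.02 on the log2 scale (limma adjusted p = 0.0083). Each had every DT-treated mouse above every PBS-treated mouse. Spry1, Spry2 and Spry4, which encode Sprouty inhibitors of receptor signaling, did not pass, with differences of 0.22, 0.14 and 0.35 on the log2 scale.

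The immediate early genes, transcribed within minutes of growth factor or stress signals, were also compared. Of the 22 listed, 13 rose and 0 fell after DT (over all genes 0.313% and 0.245%), with a median log2 fold change of 0.76. By smallest p these were led by Ier2, Btg2, Junb and Fos, which rose by 0.75, 0.76, 0.68 and 1.70 on the log2 scale (limma adjusted p between 0.0048 and 0.0090). DT 3, the lowest DT-treated mouse for the 4 ligands, had 14366 normalized counts of Fos and 184 of Dusp6. Both genes were named for passing the threshold, and in both every DT-treated mouse lay above every PBS-treated mouse, so this is not particular to DT 3. DT 3 also had the lowest sum of the 4 junctional epithelium markers with values, 648 normalized counts against 990 to 2943 after PBS. DT 3 was the lowest of all mice for Langerhans cell (1029.5), other leukocyte (78.6), neutrophil (613.5), endothelial (45.3) and salivary gland (3.02) markers too. It was not the lowest for those of keratinocytes, fibroblasts, muscle, or Schwann cells and melanocytes. A low sum in DT 3 was thus not particular to the junctional epithelium. The part of these early genes in the difference of the ligands was not tested. Markers of other cells did not separate the groups. In 0 of the 10 marker lists did any gene pass the limma threshold, and the summed markers overlapped between the groups in all 10. Only 0.558% of all genes passed that threshold, so 0 in lists this short says little about the cells. The 5 Langerhans cell markers (Cd207, Cd74, H2-Ab1, H2-Aa and Itgax) summed to 1515 to 4034 normalized counts after PBS, with PBS 3 and PBS 5 highest, and to 1029 to 2233 after DT, with DT 3 lowest. Their mean sum was 2472 after PBS and 1690 after DT. Cd207 was a small part of it, with means of 23.9 and 18.4 normalized counts, so the sum rests on the other genes of the list. The 7 other leukocyte markers with values summed to 115 to 212 and 78.6 to 193 (means 162 and 122.5), and the 3 of the neutrophils to 631 to 3301 and 614 to 3675 (means 1490 and 2062). PBS 3 and PBS 5 were left out together as an alternative chosen from an earlier analysis of these data. That they differ from their group was not tested here, and removing mice chosen in this way can narrow the spread within the group and raise the number of calls. Without them 1967 of all genes passed, against 107 with all mice. By Dixon's test no mouse was an outlier in the 34 combinations of gene and group examined. In groups this small the test needs a wide gap, and 2 deviant mice can mask each other. It therefore does not decide on PBS 3 and PBS 5. Without these 2 mice, the members Areg (1.18), Hbegf (0.81) and Epgn (0.78) passed the threshold and Ereg (0.27) did not (limma adjusted p = 0.0171, 0.0279, 0.0462 and 0.127).

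**Figure D5:**
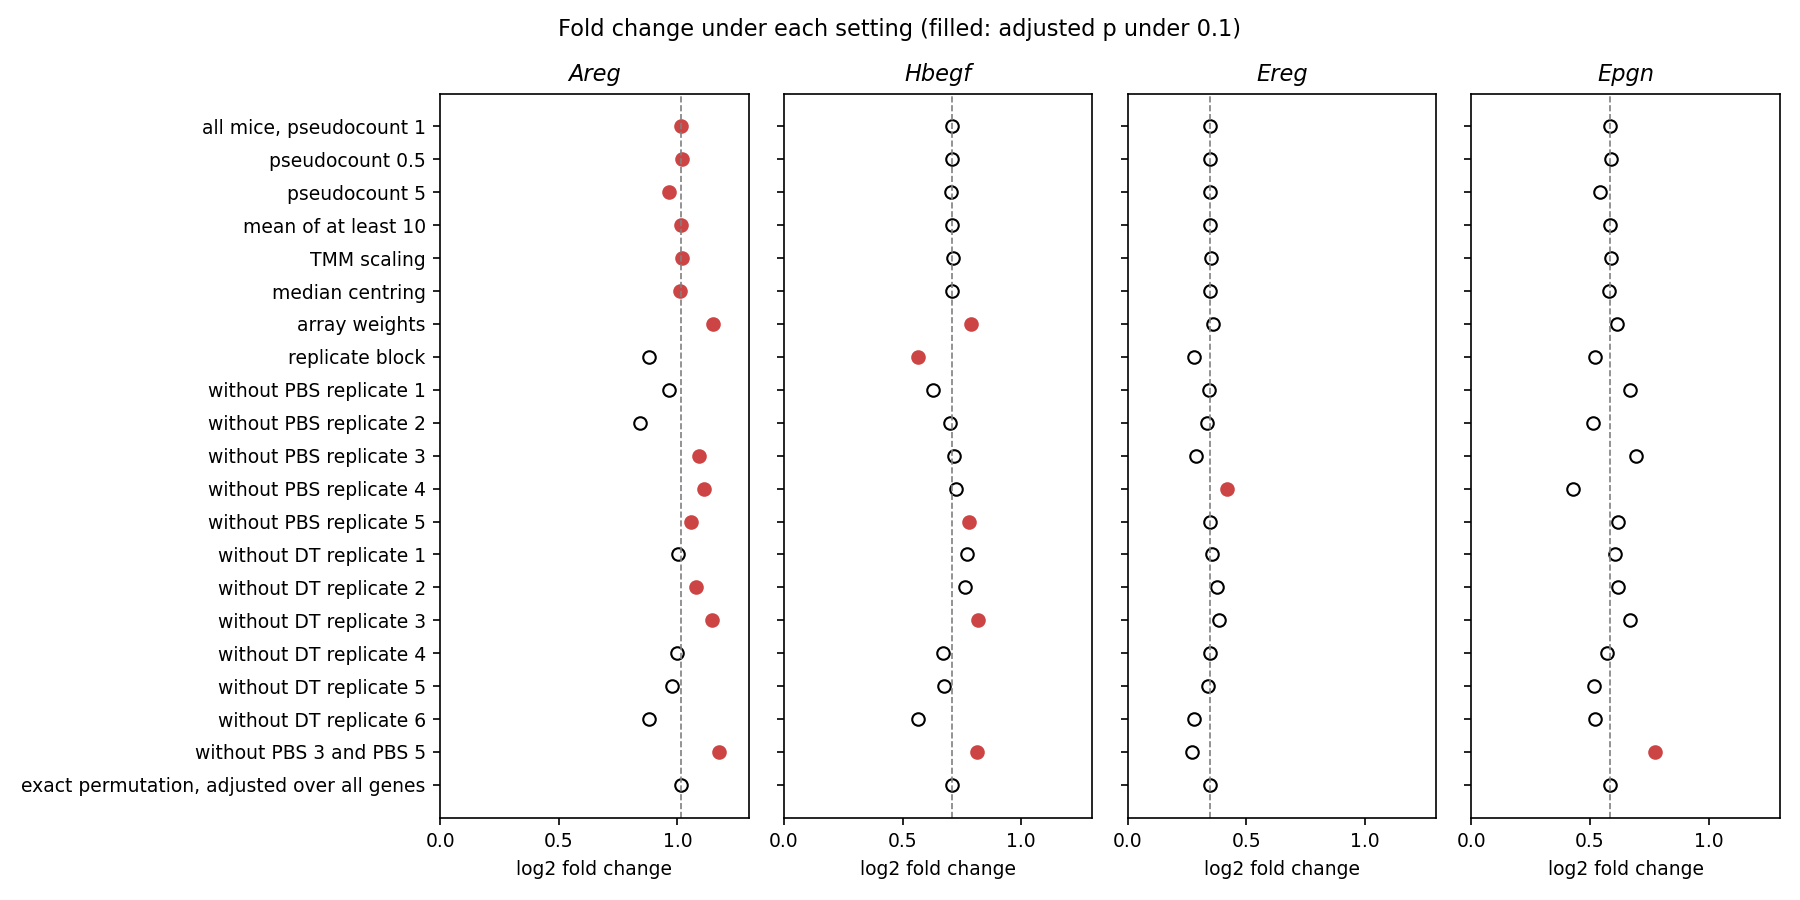
Log2 fold change between DT-treated and PBS-treated mice (x axes) for Areg, Hbegf, Ereg and Epgn under each setting (y axis), with filled points for an adjusted p under 0.1 and a dashed line at the value with all mice. All points lie above 0, and the value of Areg passed or missed the threshold depending on the mouse left out.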

How the data were processed

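RNA of the gingival epithelium of each mouse was sequenced as its own library. The authors trimmed the reads, aligned them with TopHat, counted them per gene with HTSeq, left out genes with fewer than 10 reads in all and divided each count by the DESeq2 size factor of the mouse, and these normalized counts are the deposited values. The methods name GRCm38, and the submitters' processing notes name GRCm39, cutadapt 2.10, TopHat2 2.1.1, HTSeq 2.01 and DESeq2 1.36.0. The table lists 55414 genes, of which 36244 hold no value and were left out. Reads per mouse were recovered from the value of 1 read in each column, of which all values are whole multiples within 0.002 normalized counts plus 2e-07 per read. The trimming described is that for 3′ libraries while the kit named is for whole mRNA. Levels per kilobase and the ligand shares are meaningful only for the second.

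Groups were compared with limma 3.58.1 (R 4.3.3) on log2(normalized count + 1) over all 19170 genes with values, with Benjamini-Hochberg adjustment and a threshold of 0.1, and the procedure was tested on simulated data. limma was used with an intensity trend. A pair of count-based tests on the recovered reads, planned as alternatives, was not run. Single genes were also compared by exact permutation of the mice (numpy 2.4.6). Positions are those of GENCODE M21 on GRCm38, and promoters those of RefSeq on GRCm38.p6. The members and gene lists were chosen with earlier results of these data known. Beyond the members and Cd207, genes were named as those past the threshold in each list, at most 4 by smallest p, and as the 3 most like Hbegf, Areg and Errfi1. Adam17, Erbb4, the Spry genes, the keratinocyte examples and the neighbours of the ligand cluster were named outside this rule.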

Additional observations from a re-analysis of the deposited data

How the results depend on the processing

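Over all genes 107 were called, and this became 189 with array weights, 35 with the replicate block, 1967 without PBS 3 and PBS 5, and 27 (without DT 5) to 259 (without PBS 5) when 1 mouse was left out. The other settings (pseudocounts of 0.5 and 5, a mean of at least 10 normalized counts, TMM scaling and median centring) gave 104 to 113. Of the members 1 was called, 2 with array weights (Areg and Hbegf), 3 without PBS 3 and PBS 5, and 0 to 2 when 1 mouse was left out. With the replicate block the 1 member called was Hbegf (0.57, limma adjusted p = 0.0787), and Areg was not (0.88, limma adjusted p = 0.213). DT 6 was the only mouse with its number, so the block fit gave the same log2 fold changes as the fit without DT 6. Deviations of mice with the same number correlated between -0.233 and 0.324. PBS 5 carries another number in its title than in its description, so its match with DT 5 is uncertain. Whether the numbers pair the mice was not tested. The log2 fold change of Btc was -0.05 without PBS 3 and PBS 5, that of Egfr lay between -0.11 and 0.004 when 1 mouse was left out, and that of Erbb2 between -0.016 and 0.033, and at -0.005 without PBS 3 and PBS 5. By transcript length 5 of 10 members kept their place in the order of levels. Without subtracting group means 3 pairs of members correlated past an adjusted p of 0.05, against 0. The planned count-based tests (quasi-likelihood and Wald) on recovered reads were not run. Apart from DT 6 in the block fit, the cause of these shifts was not tested. Reads per mouse lay between 17509328 and 24325513, and Areg and Epgn, the members with the fewest counts, had the largest SEs (0.22 and 0.20 on the log2 scale).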
